A study of Bos taurus with 40 samples.

Results

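Among 59051 rows counted in a bovine follicle data set, 44 stood high in the somatic cells around the oocyte and near 0 in libraries of the oocyte itself. They were chosen by 3 thresholds on the mean level, in counts per 1000000 counts of the library (CPM). A member is an Ensembl row with at least 100 CPM over 8 cumulus libraries, at least 100 CPM over the 4 granulosa libraries of the cleavage group, and under 1 CPM over 4 whole oocytes. Of 27607 Ensembl rows, 970 passed both somatic thresholds, and 44 of these also lay under the oocyte threshold. These values define the members and are given as a description. The Ensembl rows carry no gene symbol in the tables used here, so members are named by their row identifier and no function is assigned to any of them. In cumulus cells none of them passed the edgeR test between the fates of the oocytes, nor did any of the 15410 rows tested. In granulosa cells their levels were low in 2 of the 4 blastocyst libraries. Of these libraries 1 was also the lowest of all granulosa libraries for 88.7% of the 926 other rows past both somatic thresholds. In ooplasm biopsies edgeR called 0 members between the fates, and 0% of the 21174 rows tested. The member of smallest p had counts in all 4 blastocyst samples and a single count in 1 of the 4 cleavage samples. Its edgeR adjusted p was 0.6004 and its DESeq2 adjusted p was 0.00392. Counts in all 8 biopsies were present for 25 members.

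Granulosa cells line the inner wall of the ovarian follicle and produce estradiol under the control of follicle-stimulating hormone. Cumulus cells are the granulosa-derived layer that encloses the oocyte. They reach through the zona pellucida with fine projections that end at the oocyte membrane, where gap junctions pass small metabolites inward. The oocyte makes and stores most of its own RNA during growth, so somatic cells and ooplasm differ in much of what they hold.

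The study followed single bovine oocytes matured in vitro and split them by the fate of the later embryo. Granulosa cells had been taken from each follicle, and cumulus cells, a biopsy of the ooplasm and the first polar body were collected after maturation. The blastocyst group held 4 oocytes (labels B20, B21, D24 and D27) and the cleavage group, whose embryos arrested, held 4 (B14, B23, D10 and D29), each with a granulosa and a biopsy library. Cumulus cells gave 4 libraries per fate group, with columns numbered 9 to 12 (blastocyst) and 5 to 8 (cleavage), and these numbers do not tie them to an oocyte label. A further 4 oocytes (2, 3, 6 and 16) gave a biopsy and a whole-oocyte library each, without a fate. All samples carry the genotype Diploid, and the treatment label only repeats the cell type. No source used here gives breed, age or the number of animals, so each p-value reflects the spread among these libraries alone, which may be technical. Library totals were 7964591 to 9592127 counts in cumulus, 9875705 to 17668550 in granulosa cells and 13442089 to 23790073 in biopsies and oocytes.

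Labels were checked against cell type markers as far as the tables allow. Of 18 oocyte markers 1 has a row under its symbol, H1FOO, the oocyte linker histone. It stood at 533 to 1548 CPM in every biopsy and oocyte library and at 0 in 7 of 8 cumulus libraries. Of 12 granulosa and cumulus markers, 4 theca, 10 blood and immune, 6 endothelial and 7 stromal markers none has such a row, so the somatic labels could not be checked by their own markers. Of the 291 symbols on the 12 pathway lists and 7 marker lists, 5 have a row under their symbol, and no member carries one. A count of members per pathway could therefore not be made.

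The closest inside the cumulus threshold stood at 102 and 107 CPM and the closest outside at 94.3 and 93.8 CPM. For the granulosa threshold these values were 104 and 105 CPM inside and 98.6 and 94.5 CPM outside. For the oocyte threshold they were 0.984 and 0.936 CPM inside and 1.04 and 1.10 CPM outside. A further 926 Ensembl rows passed both somatic thresholds and exceeded the oocyte threshold, with a median oocyte level of 51.9 CPM. Without the granulosa threshold, 203 rows qualified.

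**Figure D1:**
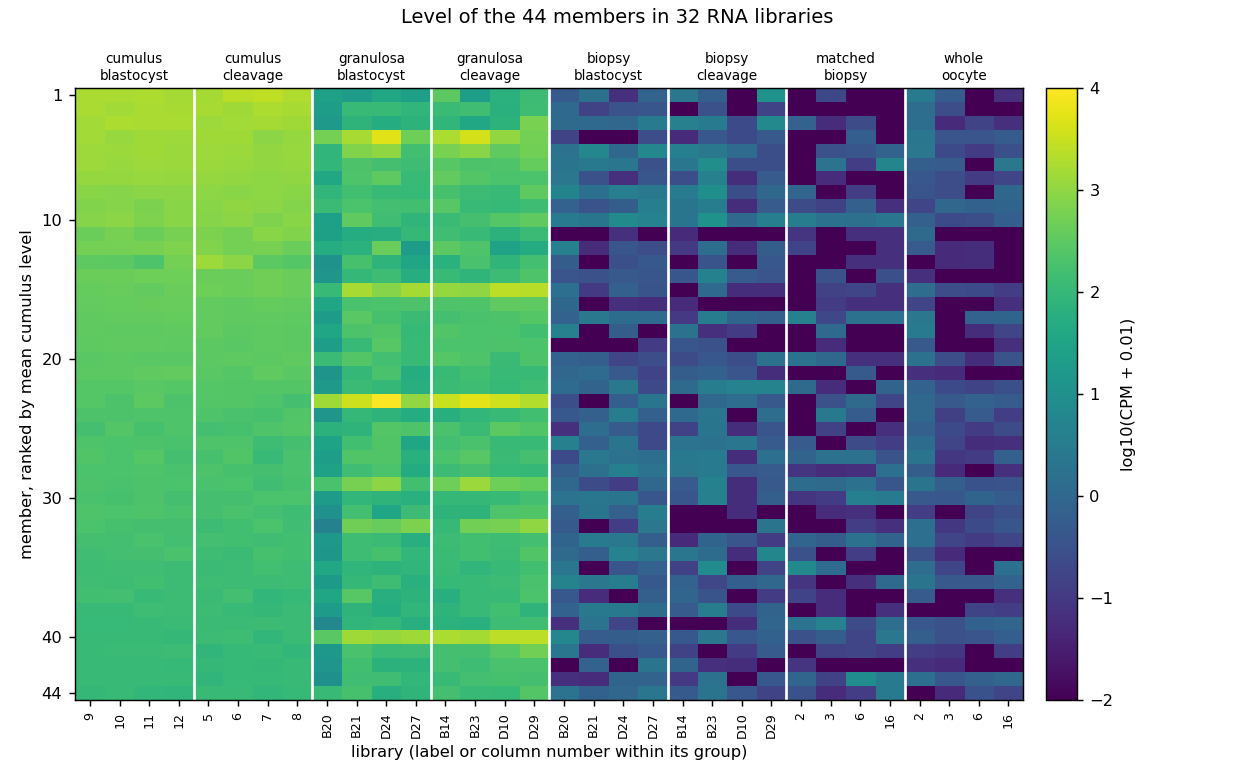
Level of the 44 members (rows, ranked by mean cumulus level) in 32 RNA libraries (columns, 4 per group), as log10 of CPM + 0.01. Cumulus and granulosa libraries are high throughout, biopsies and oocytes are low and patchy, and granulosa library B20 is darker (lower) than the other granulosa libraries.

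Cumulus cells held the members at a narrow range of levels between libraries. Member means over the 8 cumulus libraries ran from 102 to 1924 CPM with a median of 247 CPM. Their sum was 19802 to 21549 CPM per library, so the 44 rows took 1.98% to 2.15% of all cumulus counts. The 4 highest members held 30.6% of this sum. Among members the coefficient of variation over the 8 libraries had a median of 9.71%. The highest by level, ENSBTAG00000001687, stood at 1758, 1701, 1858 and 1533 CPM in blastocyst libraries 9 to 12 and at 1591, 2377, 2623 and 1950 CPM in cleavage libraries 5 to 8. Its range overlapped between the fate groups.

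The exception was ENSBTAG00000020116, singled out after its values were seen, whose coefficient of variation was 75.2%. It stood at 328, 306, 223 and 570 CPM in blastocyst libraries 9 to 12. In the cleavage libraries it stood at 1348 CPM in library 5 and 900 CPM in library 6, and at 311 and 258 CPM in libraries 7 and 8. So 2 cleavage libraries were above all others and 2 lay within the blastocyst range. Its fitted difference, blastocyst minus cleavage, was -0.99 on the log2 scale (SE 0.63, edgeR adjusted p = 0.509).

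Granulosa cells of the cleavage group held the same rows at other proportions. Means ran from 104 to 3613 CPM with a median of 160 CPM, and the coefficient of variation over 4 libraries had a median of 31.7%. Here the 4 highest members held 54.2% of the sum. Levels are compared for the same row between cell types, not between rows, since longer transcripts can collect more counts. Every cumulus library was above every cleavage granulosa library for 22 members, and 20.9% of Ensembl rows with a count showed this. Every cumulus library was below for 7 members, against 17.2% of rows, and 15 members overlapped. The rule used both sets of libraries, so nothing is read from these counts.

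The widest ratio towards cumulus was that of ENSBTAG00000001687, whose cumulus mean was 14.4 times its cleavage granulosa mean. The cleavage granulosa libraries B14, B23, D10 and D29 held it at 312, 21.9, 67.8 and 133 CPM, all far below the lowest cumulus library. In the other direction stood ENSBTAG00000021516 and ENSBTAG00000019291, both also named after their values were seen. ENSBTAG00000021516 had 169 to 309 CPM in cumulus and 3122, 5647, 3607 and 2076 CPM in the cleavage granulosa libraries, a ratio of means of 15.5. ENSBTAG00000019291 had 91.7 to 140.0 CPM in cumulus and 1827, 1585, 2522 and 2465 CPM in the same granulosa libraries, a ratio of 18.3. For both rows the cell types did not overlap.

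**Figure D2:**
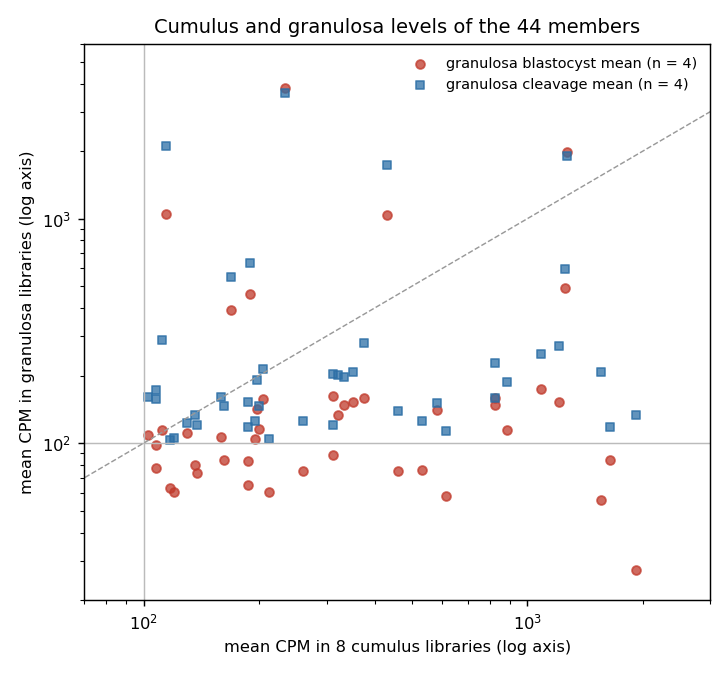
Mean CPM of each member in 8 cumulus libraries (x axis, log) and in 4 granulosa libraries (y axis, log), with squares for the cleavage group and circles for the blastocyst group; the dashed line marks equal levels and the grey lines 100 CPM. Of the 44 members 32 had the higher mean in cumulus against cleavage granulosa, and 26 of the blastocyst circles, which the rule did not bound, lie at 100 CPM or more.

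The cumulus contrast of the fates asks whether cells around oocytes that later gave blastocysts differ from those around oocytes whose embryos arrested. The rule did not use this contrast. All 44 members were tested and 0 were called at an edgeR adjusted p under 0.05, as were 0% of 15410 rows tested. At an unadjusted p under 0.05, edgeR had 4 members higher and 6 lower in the blastocyst group, against 6.2% and 8.4% of all rows. DESeq2 called 0 members and 0.605% of the rows it tested. The median member difference was 0.07 on the log2 scale, and 13 of 44 members were below 0, against 49.3% of all rows and 44.5% of the 926 other rows past both somatic thresholds.

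Values of the members with the smallest p show how small these differences were. ENSBTAG00000008409 had 225, 197, 223 and 193 CPM in the blastocyst libraries and 172, 192, 161 and 135 CPM in the cleavage libraries. The lowest blastocyst library lay just above the highest cleavage library. The fitted difference was 0.33 on the log2 scale (SE 0.095, edgeR adjusted p = 0.172). ENSBTAG00000019915 had 1476, 1781, 1695 and 1726 CPM against 1327, 1483, 1523 and 1417 CPM, with overlapping groups and a log2 difference of 0.20 (SE 0.070, edgeR adjusted p = 0.237).

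In the opposite direction, ENSBTAG00000011105 had 391, 398, 364 and 433 CPM in the blastocyst libraries and 483, 451, 506 and 421 CPM in the cleavage libraries. Only blastocyst library 12 and cleavage library 8 crossed. The difference was -0.24 on the log2 scale (SE 0.075, edgeR adjusted p = 0.191). ENSBTAG00000007331 had 736, 801, 673 and 858 CPM against 879, 988, 896 and 778 CPM, where cleavage library 8 lay inside the blastocyst range, with a log2 difference of -0.22 (SE 0.088, edgeR adjusted p = 0.292).

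Granulosa libraries of the blastocyst group spread far more. The summed level of the members was 3969 CPM in B20, 15667 in B21, 24114 in D24 and 8778 in D27, against 15002, 20479, 16720 and 16918 CPM in cleavage libraries B14, B23, D10 and D29. B20 and D27 lay below every cleavage library, D24 above every one and B21 within their range. B20 and D27 also had the lowest library totals in granulosa cells, 9875705 and 10821126 counts. The rest had 14502038 to 17668550 counts. Whether the low member levels go with the low totals was not tested. In D24 a single row, ENSBTAG00000021516, stood at 9211 CPM and made up 38.2% of the sum. By the median over members, B20 held 14.4% of the cleavage mean, D27 52.3%, D24 83.2% and B21 89.1%. B20 was the lowest of the 8 granulosa libraries for 36 of 44 members, and for 88.7% of the 926 other rows that passed both somatic thresholds. CPM is a share of the library total. In these bulk samples fewer cells of a type, less RNA per cell and more counts on other rows cannot be told apart.

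**Figure D3:**
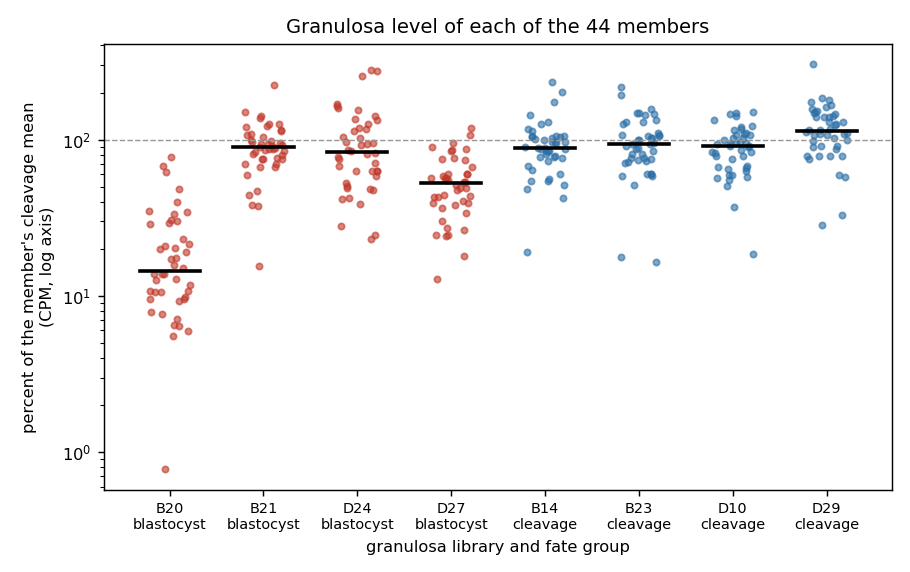
Level of each of the 44 members (points) in each granulosa library as a percent of that member's mean in the 4 cleavage libraries (log axis), with the median over members as a black bar. The bar stands at 14.4% in B20 and 52.3% in D27, and at 83.2% to 113% in the other 6 libraries.

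The fitted contrast of the fates in granulosa cells was below 0 for 44 of 44 members, with a median of -1.08 on the log2 scale and a range of -2.76 to -0.33. Over all 22934 rows tested, 48.3% were below 0 and the median was 0.10. The rule set its threshold on the cleavage arm, so this is a description. The 926 other rows past both somatic thresholds did the same: 98.7% were below 0 and their median was -1.002. Chosen without a granulosa threshold, 164 of the 197 tested rows were below 0 (median -0.95). Chosen with the threshold on the blastocyst arm instead, 27 of 29 were (median -0.86). With scaling by library totals alone, 41 of 44 members were below 0, the median was -0.64 and the median of all rows moved to 0.70. DESeq2 size factors gave -0.90 against 0.48 for all rows.

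At an edgeR adjusted p under 0.05, 0 members were higher and 2 lower in the blastocyst group, where 21.3% of all rows were called higher and 0.349% lower (21.6% in either direction). At an unadjusted p under 0.05 edgeR had 0 members higher and 10 lower, against 31% and 5.8% of all rows. Because the rule used the cleavage arm, nothing is read from these counts. ENSBTAG00000001687 had 27.2, 20.7, 37.4 and 24.1 CPM in blastocyst libraries B20, B21, D24 and D27, all below B14, D10 and D29 and around the level of B23. The fitted difference was -2.76 on the log2 scale (SE 0.70). ENSBTAG00000012409 had 26.2, 52.9, 53.6 and 98.8 CPM in the same order and 141, 119, 70.7 and 121 CPM in B14, B23, D10 and D29, with D27 above D10. Its difference was -1.49 (SE 0.47).

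The count of 2 rested on single libraries. It was 0 without B20, 0 without D27 and 0 without both, 4 without B21, and 1 without D24, B14, D10 or D29 in turn. Without both B20 and D27, 35 of 44 members were below 0, with a median of -0.42, against 44% of all rows with a median of 0.17. In that fit edgeR called 0 of all 23577 rows higher and 0 lower, where 4884 were higher and 80 lower with every library. DESeq2 called 6 members lower and 0 higher, beside 1.06% and 31.4% of the rows it tested.

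The marker genes of other compartments that have a row, H1FOO and MUC16, were also looked at in granulosa cells. H1FOO stood at 34.2, 9.66, 5.83 and 19.1 CPM in granulosa libraries B20, B21, D24 and D27, against 0.396, 5.10, 0.234 and 0.498 CPM in B14, B23, D10 and D29. MUC16, the 1 of 5 surface epithelium markers with a row, stood at 122, 14.7, 14.6 and 40.6 CPM against 0.283, 1.65, 0.234 and 2.18 CPM. For both genes every blastocyst library was above every cleavage library, and B20 and D27, the libraries with the lowest member levels, were the highest. This held in D24 too, although its summed member level was above every cleavage library. Of all rows tested, edgeR called 21.3% higher in the blastocyst group at an adjusted p under 0.05. The share of all rows with every blastocyst library above every cleavage library was not counted. Cumulus libraries held both at 0 to 0.109 CPM. MUC16 was also present in ooplasm biopsies of the fate groups, at 0.156 to 8.45 CPM. Their part in the granulosa contrast was not tested.

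The difference between the cell types was tested as the interaction of cell type and fate in 1 fit of the 16 somatic libraries. Each row had 1 spread for both cell types there. Yet the median coefficient of variation of members was 9.71% in cumulus and 31.7% in cleavage granulosa cells. For ENSBTAG00000018160 the edgeR SE was 0.41 in this fit and 0.48 in granulosa cells alone. A difference of independent effects should have the larger SE, so the SEs and calls of this fit are given as a description. The granulosa difference minus the cumulus difference had a member median of -0.92 on the log2 scale and was below 0 for 44 of 44 members. Of the 926 other rows past both somatic thresholds 96% were below 0, with a median of -0.83. The rule set a threshold on the cleavage granulosa arm, so the counts of members are a description. Of 44 members 0 were called by edgeR, where 10.2% of 21929 rows were called in either direction, 9.91% with the higher and 0.319% with the lower difference in granulosa. At an unadjusted p under 0.05, edgeR had 10 members lower and 0 higher, against 6.43% and 22.2% of all rows, and 44.7% of all rows were below 0. DESeq2 called 4 lower and 0 higher, beside 1.34% and 14.5% of its rows. Chosen without the granulosa threshold, 203 rows held 16 edgeR calls, 12 higher and 4 lower. Among members the smallest p belonged to ENSBTAG00000018160 (-1.25 on the log2 scale, SE 0.41) and ENSBTAG00000001687 (-2.26, SE 0.76). For ENSBTAG00000018160 cumulus held 1208 to 1306 CPM in the blastocyst group and 1062 to 1259 CPM in the cleavage group, while granulosa held 93.9, 208, 171 and 139 CPM against 273, 209, 226 and 381 CPM. The edgeR count of 0 became 6 without B20, 8 without B21, 5 without D24 and 5 without B23.

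The members had low counts in oocyte libraries. In the 4 whole oocytes, which the rule used, member means were 0.0145 to 0.984 CPM with a median of 0.436 CPM. No member was at 0 counts in all 4 oocytes and 22 had a count in each. Oocyte 2 held the most: the summed level was 43.8 CPM there and 8.66, 8.94 and 16.4 CPM in oocytes 3, 6 and 16, and 34 of 44 members were highest in oocyte 2. Without oocyte 2 the rule would choose 73 rows.

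Biopsies of the fate groups were not used by the rule. Member means over the 8 biopsies were 0.0127 to 4.39 CPM with a median of 0.984 CPM. Means of at least 1 CPM were reached by 21 of 44 members (47.7%), against 18.3% of the 14644 other Ensembl rows with a count that also lay under 1 CPM in oocytes. Of these other rows, 10506 also lay under 1 CPM in cumulus and cleavage granulosa cells, and 9.01% of the 10506 reached 1 CPM. The other rows were thus not matched to the members for level, and nothing about the members is read from this difference. As a share of the cumulus level, the biopsy mean was 0.00207% to 1.44% with a median of 0.346%. A count in all 8 biopsies was present for 25 members. The summed level was 63.5, 45.8, 54.8 and 51.2 CPM in blastocyst biopsies B20, B21, D24 and D27, and 40.6, 102, 16.7 and 52.6 CPM in cleavage biopsies B14, B23, D10 and D29.

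The mean trace was close in the blastocyst and cleavage groups, 53.8 ± 7.45 CPM (SD, n = 4) and 52.98 ± 35.96 CPM (SD, n = 4), with a wider spread in the cleavage group. The difference of 0.836 CPM was under the SD of either group, and it turned to -11.3 CPM without D10 and to 17.2 CPM without B23. B23 was the highest biopsy for 13 members and B20 for 10, while D10 was the highest for 0. The label B20 thus had the highest trace among blastocyst biopsies and the lowest summed level among granulosa libraries. The label B23 went the other way, with the highest trace of all biopsies (102 CPM) and the highest granulosa sum of the cleavage group (20479 CPM). A link between trace and granulosa level was not tested. Matched biopsies without a fate had 27.2, 21.03, 26.9 and 29.6 CPM for oocytes 2, 3, 6 and 16. All were under every blastocyst biopsy and under cleavage biopsies B14, B23 and D29, and above cleavage biopsy D10.

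**Figure D4:**
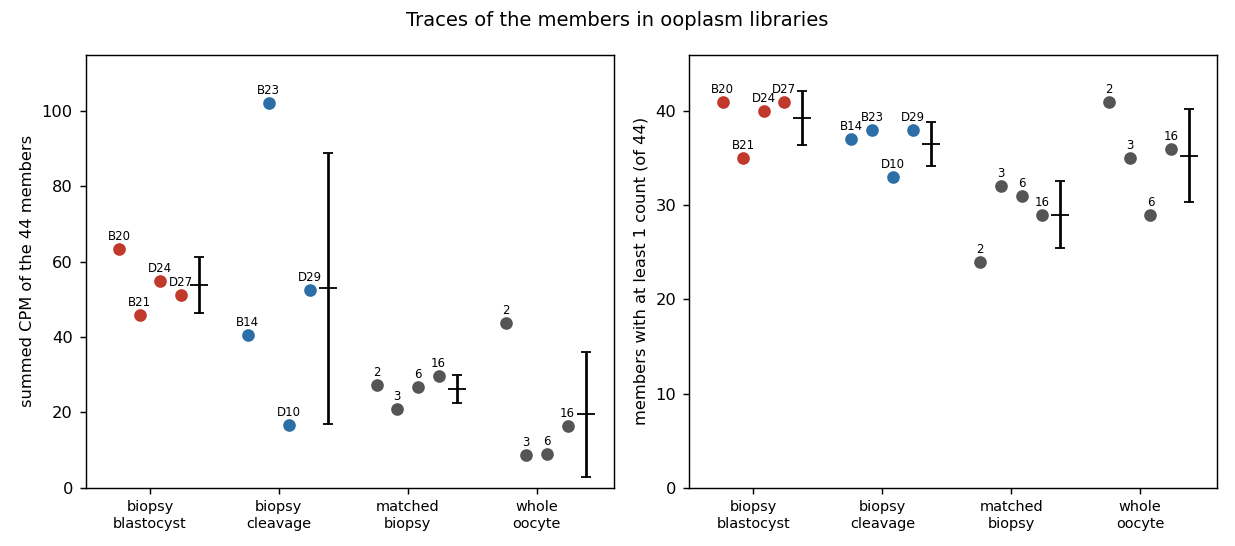
Summed CPM of the 44 members (left) and number of members with at least 1 count (right) in the 16 ooplasm libraries, with each library as a labelled point and mean ± SD (n = 4) as a black bar. Cleavage biopsies spread from 16.7 to 102 CPM, blastocyst biopsies lie between 45.8 and 63.5 CPM, and oocyte 2 stands above the other oocytes at 43.8 CPM.

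Traces were uneven between members. ENSBTAG00000012409 had a cumulus mean of 613 CPM and 2 counts over the 8 biopsies, 1 in D24 and 1 in B14. ENSBTAG00000017122, with a cumulus range of 704 to 923 CPM, had the highest trace. It stood at 2.78, 2.13, 7.41 and 4.52 CPM in blastocyst biopsies B20, B21, D24 and D27 and at 2.13, 11.4, 1.14 and 3.61 CPM in cleavage biopsies B14, B23, D10 and D29. It was present in every biopsy, and the fate groups overlapped. Over the 44 members, Spearman's rho of the biopsy mean was 0.110 with the cumulus mean, 0.013 with the cleavage granulosa mean, 0.287 with the oocyte mean and 0.434 with the matched biopsy mean. These are descriptions across rows that share the same libraries.

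Traces were also uneven within a member. For 14 members more than 50% of the CPM of the 8 biopsies lay in 1 library. ENSBTAG00000001687 had 0.481, 1.65, 0.057 and 0.794 CPM in blastocyst biopsies B20, B21, D24 and D27, and 2.35, 0.655, 0 and 11.99 CPM in cleavage biopsies B14, B23, D10 and D29. D29 alone held 229 of its 353 counts. ENSBTAG00000019291 had 5.99 CPM in B20, 2.38 CPM in B23 and 0.416 to 0.733 CPM in the other 6.

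For the contrast of the fates in biopsies, 24 of 44 members passed the filter on low counts. Of these 24, 0 were called by edgeR, as were 0% of 21174 rows. At an unadjusted p under 0.05, edgeR had 1 member higher in the blastocyst group and 0 lower, against 2.5% and 2.3% of all rows. Without the filter edgeR had 18 of 44 members below 0, against 49.2% of all rows. DESeq2 called 1 of 44 members higher, ENSBTAG00000008409, and 0 lower, beside 0.284% and 0.154% of the rows it tested.

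ENSBTAG00000008409 had 0.642, 2.18, 0.684 and 3.28 CPM in blastocyst biopsies B20, B21, D24 and D27, from 12, 45, 12 and 66 counts. Cleavage biopsies B14, B23 and D29 had 0 counts and D10 had 1 count. Every blastocyst biopsy was thus above every cleavage biopsy. The ratio of the group levels, from 135 counts against 1, was 136 with a 95% interval of 24.03 to 5418, which covers counting error only. The fitted difference was 6.43 on the log2 scale (SE 1.54, edgeR adjusted p = 0.6004) and 6.75 by DESeq2 (SE 1.51, DESeq2 adjusted p = 0.00392). In matched biopsies the same row had 0 to 1 count, and in oocytes 0 to 5 counts.

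The same member had the smallest p among members in the cumulus contrast, with the same sign (edgeR adjusted p = 0.172). In neither contrast did edgeR call it. In granulosa cells ENSBTAG00000008409 had 10.8, 158, 35.1 and 128 CPM in B20, B21, D24 and D27 against 78.3, 78.7, 224 and 230 CPM in B14, B23, D10 and D29, with overlapping groups and a fitted difference of -1.36 on the log2 scale (SE 0.79).

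**Figure D5:**
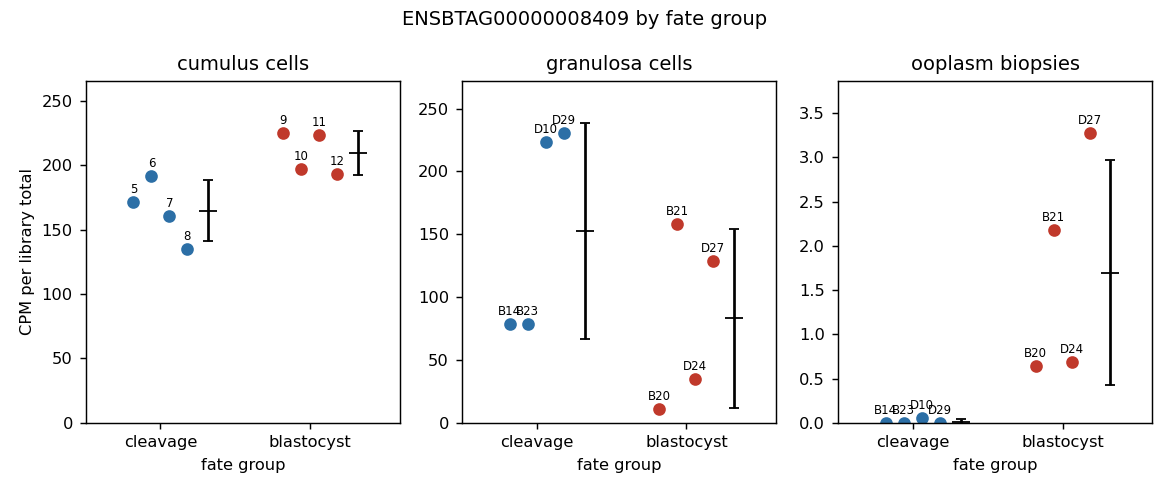
Level of ENSBTAG00000008409 in CPM by fate group in cumulus cells, granulosa cells and ooplasm biopsies (panels with their own axes from 0), with each library as a labelled point and mean ± SD (n = 4) as a black bar. Blastocyst libraries lie above cleavage libraries in cumulus and biopsies and overlap with them in granulosa cells.

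Other members with small p in biopsies had wider overlap. ENSBTAG00000000073 had 0.856, 3.15, 2.45 and 0.645 CPM in blastocyst biopsies and 0.0443, 0.833, 0.364 and 0.105 CPM in cleavage biopsies, where B23 lay above D27. Its difference was 2.47 on the log2 scale (SE 1.21, edgeR adjusted p = 0.9999). ENSBTAG00000017382 had 1.23, 0.824, 2.45 and 0.199 CPM against 1.15, 3.51, 4.47 and 4.82 CPM, with B14 inside the blastocyst range, and a difference of -1.59 (SE 0.98, edgeR adjusted p = 0.9999).

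Matched biopsies were set against the whole oocytes of the same number. The rule used the oocytes, so this is a description. Of 44 members 13 passed the filter on low counts, and 0 were called by edgeR without or with the oocyte number as a block, as were 0% of 18540 rows. At an unadjusted p under 0.05 edgeR had 1 member higher in biopsies in either fit and 0 lower, against 3.13% and 2.41% of all rows. Without the filter edgeR had 24 of 44 members below 0 (median -0.32), against 52.7% of all rows. DESeq2 called 1 member higher, ENSBTAG00000017122, and 0 lower, beside 0.204% and 0.306% of its rows, with 23 of 44 members below 0. It had 3.35, 1.85, 1.66 and 2.30 CPM in matched biopsies 2, 3, 6 and 16 and 0.697, 0.210, 0.260 and 0.613 CPM in the oocytes, so that all 4 biopsies were above all 4 oocytes. The difference was 2.28 on the log2 scale (SE 0.85). ENSBTAG00000015348 had 1.93, 4.49, 0.221 and 1.46 CPM against 0.406, 0.294, 0.727 and 0.892 CPM, with biopsy 6 below every oocyte.

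Of the 48 rows that are not Ensembl rows and passed both somatic thresholds, 2 passed all 3: TIMP1 and XIST. TIMP1 encodes a secreted inhibitor of matrix metalloproteinases. It stood at 1014 to 1478 CPM in the 8 cumulus libraries. In granulosa cells TIMP1 had 0.608, 16.5, 6.69 and 36.5 CPM in B20, B21, D24 and D27 and 354, 7.03, 45.4 and 89.0 CPM in B14, B23, D10 and D29, with overlapping groups (difference -3.53 on the log2 scale, SE 1.22). Among the cleavage libraries only B14 held TIMP1 over 100 CPM. The threshold on the cleavage granulosa arm also chose TIMP1 and XIST, so their granulosa differences are a description. Of the 926 other Ensembl rows past both somatic thresholds, 98.7% were below 0 in that contrast. Biopsies held TIMP1 at 0 to 1.25 CPM.

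XIST is the RNA that coats the inactive X chromosome in female cells. In cumulus it had 245, 324, 229 and 203 CPM in blastocyst libraries 9 to 12 and 389, 474, 396 and 347 CPM in cleavage libraries 5 to 8. The fate groups did not overlap. The difference was -0.69 on the log2 scale (SE 0.14, edgeR adjusted p = 0.134), and DESeq2 called it (adjusted p = 0.000246). In granulosa XIST had 140, 1052, 545 and 726 CPM in B20, B21, D24 and D27, each below the 1093 to 1238 CPM of the 4 cleavage libraries. The granulosa difference was -1.40 (SE 0.68), a description because the threshold lay on the cleavage arm. Whole oocytes held XIST at 0.0520 to 0.929 CPM.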

How the data were processed

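Per the labels' protocols, a SMART-Seq HT kit and a Nextera XT kit gave the RNA libraries. The submitters' processing notes name STAR and featureCounts beside Trim Galore and cutadapt, and versions, settings and build were not given in the sources used here. Counts were what the authors deposited: whole numbers in 4 tables of the same 59051 rows, used unchanged. Whether counting used strand was not stated, so rows that overlap, antisense rows and near-identical copies may share counts. The polar body table has 24 value columns that name no sample and was not used. The members and lists were chosen with earlier results of these data known.

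CPM are counts over the library total times 1e+06, without other scaling. Each of 5 contrasts was fitted on its own libraries with edgeR 4.0.16 (filterByExpr, TMM, robust quasi-likelihood test, R 4.3.3) over all rows, and Benjamini-Hochberg adjusted p under 0.05 was called. DESeq2 1.42.0 (Wald test, every row with a count) was the other tool. The script was tested on simulated data. Alternatives were other scaling, no filter, other thresholds, each library left out, the label letter (B or D) as a covariate and the oocyte number as a block. Same-number matched biopsies and oocytes deviated together (correlations 0.233, 0.261, 0.175 and 0.173 for 2, 3, 6 and 16, across rows), so the numbers were taken as pairs, although biopsy 6 with oocyte 16 reached 0.173 too. Pairs of libraries within a group differed by more than counting noise (chi-square per degree of freedom 4.70 or more), and each was treated as 1 sample. The values were 4.70 to 11.6 in cumulus and 44.6 or more in every other group. Spread above counting noise does not tell separate oocytes from repeated preparations of the same material, and cumulus columns carry no oocyte label.

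Row identifiers were named by rule: in each contrast at most 2 per direction, of smallest p, plus the extremes of level and trace. ENSBTAG00000021516, ENSBTAG00000019291 and ENSBTAG00000020116 were added after their values were seen. Counting error alone sets the interval given. Python 3.11.15, pandas 2.3.3 and matplotlib 3.10.9 made tables and figures.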

Additional observations from a re-analysis of the deposited data

Results flagged for a closer look

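For the named rows and the summed traces, 144 groups of 4 libraries were looked at. Of these, 21 held a library whose gap to the nearest of the others exceeded the 95% critical value of Dixon's test. Chance flags about 1 in 20 where values follow a normal distribution. A group with counts in only 1 library is always flagged, and some rows were named as extremes, so these rates are not compared.

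Biopsy B21 had 35 members with a count, against 40 to 41 in the other blastocyst biopsies. ENSBTAG00000008409 had 0.0520 CPM in cleavage biopsy D10 and 0 in the others. ENSBTAG00000012409 had 0.0570 CPM in biopsy D24, 0.0443 CPM in biopsy B14 and 1.16 CPM in oocyte 2, each with the other 3 libraries of its group at 0. ENSBTAG00000001687 had 0.195 CPM in matched biopsy 3 and 0 in the others. TIMP1 had 0.114 CPM in biopsy D24 and 0.841 CPM in matched biopsy 16, again with 0 in the others.

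Oocyte 2 was the high library for 5 rows. ENSBTAG00000019915 had 1.45 CPM there against 0.0420 to 0.156 CPM, ENSBTAG00000011105 had 1.39 CPM, ENSBTAG00000000073 had 1.57 CPM and XIST had 0.929 CPM, beside ENSBTAG00000012409 above.

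Among biopsies of the fate groups, D27 was high for ENSBTAG00000019915 (2.73 CPM against 0.969 to 1.177 CPM) and ENSBTAG00000007331 (3.67 CPM against 0.339 to 0.749 CPM). B23 was high for ENSBTAG00000011105 (1.13 CPM against 0 to 0.0524 CPM) and ENSBTAG00000019291 (2.38 CPM). B20 was high for ENSBTAG00000019291 (5.99 CPM), B21 for ENSBTAG00000015348 (1.89 CPM against 0 to 0.171 CPM) and D29 for the same row (0.890 CPM against 0 to 0.0520 CPM).

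In somatic cells, ENSBTAG00000019915 had 632 CPM in granulosa library D29 against 36.9 to 87.6 CPM in the other cleavage libraries. ENSBTAG00000019291 had 98.8 CPM in cumulus library 12 against 112 to 113 CPM.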

How the results depend on the processing

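The number of members was 13 and 136 with somatic thresholds of 200 and 50 CPM, 26 and 83 with oocyte thresholds of 0.5 and 2 CPM, 203 without the granulosa threshold, 29 with it on the blastocyst libraries, 28 with TMM-scaled totals and 37 to 73 with 1 library left out. Members called in cumulus were 0 under all 19 alternatives. In granulosa the 2 calls became 0 and 3 with somatic thresholds of 200 and 50 CPM, 1 and 4 with oocyte thresholds of 0.5 and 2 CPM, 7 (2 higher, 5 lower) without the granulosa threshold, 0 with it on the blastocyst libraries, 6 at adjusted p under 0.10, 1 with either other scaling (size factors of DESeq2, library totals), 6 by the DESeq2 Wald test, 1 with the label letter as a covariate, 0 without both B20 and D27 and 0 to 4 with 1 library left out. For the difference between the cell types, 0 calls became 2 with somatic thresholds of 50 CPM, 16 (12 higher, 4 lower) without the granulosa threshold, 3 at adjusted p under 0.10, 1 with DESeq2 size factors, 4 with the DESeq2 Wald test and 0 to 8 with 1 library left out. In biopsies and in matched biopsies against oocytes 0 calls became 1 with the DESeq2 Wald test and stayed 0 under the other alternatives, among them the replicate block of oocyte numbers (0). The difference in summed trace between the fates, 0.836 CPM, was -21.6 CPM with the oocyte threshold of 2 CPM and -11.3 to 17.2 CPM with 1 library left out. Where a value moved, the cause was not tested, except that other thresholds change how many rows are counted and a library left out leaves fewer samples. The lowest values above 0 in biopsies rest on 1 count.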
